A study of Saccharomyces cerevisiae with 42 samples.

Results

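The step from 4 h to 5 h in yeast treated with myriocin (Myr) was described from 6 of the 42 libraries of a time course: the 3 Myr libraries of 5 h against the 3 Myr libraries of 4 h, with all yeast genes and without the spike-in RNAs. Cells were of the haploid strain BY4741, mating type a, made prototrophic with a plasmid that carries HIS3, LEU2, URA3 and a MET gene. A saturated culture was diluted into fresh synthetic medium with glucose, and cells were taken every hour from 0 h to 6 h. Every culture held 0.3% ethanol. Treated cultures also held Myr at 700 ng/ml, and vehicle cultures did not, with 3 libraries for each treatment and hour. All hours of a replicate came from the same flask by the study's account, but the columns of values carry a letter and no replicate number, so hours of a flask could not be joined. The letters name libraries here. The p-values of the gene tests rest on the spread between libraries of the same group. That spread was pooled over the 12 groups (36 libraries) of both treatments in the fit, so vehicle libraries also enter the p-values of the Myr step.

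Myr blocks serine palmitoyltransferase, the first enzyme of sphingolipid synthesis. Sphingolipids are made in the endoplasmic reticulum and Golgi and are a main part of the yeast plasma membrane. The Ypk1 kinase and the Orm proteins adjust sphingolipid synthesis. A yeast culture that leaves fast growth lowers the genes that build ribosomes and raises those of storage sugars, stress proteins and the vacuole, the latter in large part through the transcription factors Msn2 and Msn4. Genes of inositol and phospholipid synthesis are raised by Ino2 and Ino4 and held down by Opi1 while phosphatidic acid is low and inositol is plentiful.

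Levels are TPM, in which every library is scaled to the same total of transcripts, so each value is a share of its library and the depth of each library is unknown. The test was limma on log2(TPM + 1), which understates the fold change of genes near 1 TPM, and a call meant an adjusted p (Benjamini-Hochberg) below 0.05 over 5983 genes whose mean over 1 to 6 h reached 1 TPM. "Rose" and "fell" are written only of called genes. The median log2 fold change of all genes from 4 h to 5 h with Myr was 0.18 on TPM, 0.01 when libraries were aligned on the median gene instead (median centring), and -0.19 after scaling to the spike-ins. A change on TPM is therefore best read against 0.18. The spike-ins held 0.285%, 0.387% and 0.367% of TPM in the Myr libraries A, B and C of 4 h and 0.478%, 0.451% and 0.424% in those of 5 h. The groups did not overlap (ratio of means 1.3, exact permutation test, two-sided, p = 0.1, the smallest that 3 against 3 allows). In vehicle the mean share also went up over this hour, from 0.382% ± 0.0359 to 0.452% ± 0.0341 (SD, n = 3), with no overlap (ratio 1.19, exact permutation p = 0.1). Whether this share follows the yeast RNA per cell was not tested. The median gene differed by a log2 ratio of 0.065 to 0.124 between Myr libraries of the same hour. In vehicle, library B of 4 h stood apart from the other 2 of its group by 0.481 and 0.504, against 0.087 between those 2. Vehicle library A of 5 h also stood apart, by 0.222 and 0.234 against 0.075, and had 85010 TPM of RPL41A against 45357 and 44666 in the other 2. Mating type a markers MFA1, MFA2, STE2, STE6 and BAR1 summed to between 8223 and 10557 TPM in the 6 Myr libraries and the 3 mating type alpha markers to between 22.2 and 31.9 TPM. The 7 sporulation markers summed to between 44.6 and 56.3 TPM. URA3, a plasmid gene that BY4741 lacks, was read at 63.7 to 134 TPM.

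From 4 h to 5 h with Myr, 1971 genes rose (32.9% of those tested) and 400 fell (6.69%). At least 2-fold changes were made by 225 rising genes (3.76%) and by 17 falling genes (0.284%). OPI3 and INO1 of phospholipid synthesis rose most, and the list of Msn2 and Msn4 targets had the highest median of the lists described. MEP2, OLE1 and genes for iron and phosphate uptake were among the genes that fell most, and ribosome biogenesis had the lowest median. The balance of rises and falls depended on the scaling: 1470 rose and 1313 fell after median centring, and 245 rose and 732 fell after spike-in scaling. List counts under either scaling are to be read against these counts over all 5983 genes. Without Myr library B of 5 h the number of falling genes was 244, and without Myr library A of 4 h it was 265. The counts also moved with libraries outside the step, through the pooled spread. Without vehicle library B of 4 h, 2313 rose and 551 fell. A fit of the 6 Myr libraries alone gave 2644 and 699, and a fit of the 12 libraries of 4 h and 5 h gave 1294 and 188.

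Among the hourly steps of treated cells between 1 h and 6 h, that from 4 h to 5 h was not the largest by every measure. The step from 1 h to 2 h called 2919 genes, and that from 4 h to 5 h called 2371. The median absolute log2 fold change was 0.3 from 1 h to 2 h and 0.25 from 4 h to 5 h. On TPM the step from 4 h to 5 h had the most rising genes, the most genes that rose at least 2-fold (225, against 176 from 1 h to 2 h) and far more calls than its neighbours, 417 from 3 h to 4 h and 316 from 5 h to 6 h. After median centring, 1470 genes rose from 4 h to 5 h and 1803 from 1 h to 2 h, so the order of the rises turned, and 144 genes rose at least 2-fold from 4 h to 5 h and 142 from 1 h to 2 h. These steps share libraries and were not tested against each other. In vehicle the step from 4 h to 5 h called 153 genes, and the step from 5 h to 6 h called 1535.

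**Figure D1:**
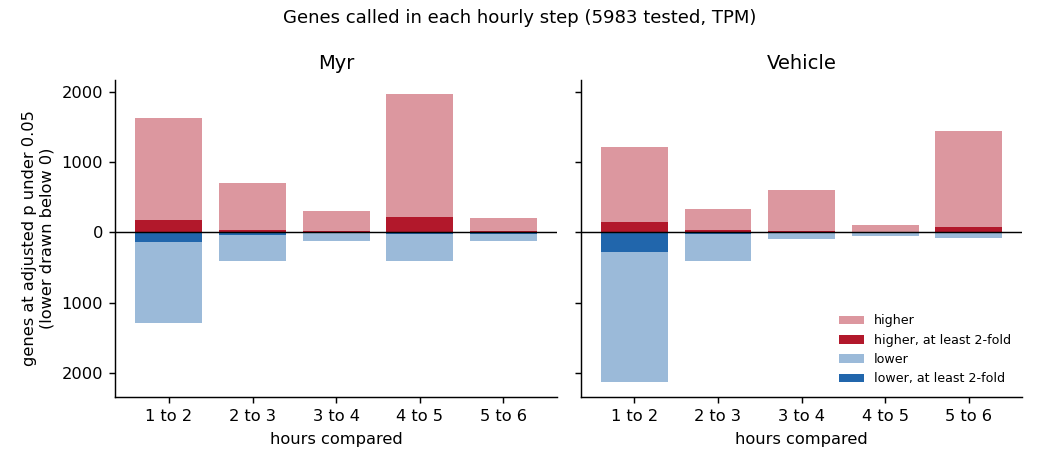
Number of genes called in each hourly step with Myr (left) and vehicle (right), with rises above 0, falls below 0 and changes of at least 2-fold in full colour. The step from 4 h to 5 h with Myr has 1971 rises and 400 falls between 2 quieter steps, and in vehicle the late rise of 1451 genes comes from 5 h to 6 h.

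The largest rises were in inositol and phospholipid synthesis. The promoters of INO1 and OPI3 are shown because both hold CATGTG, the core of the element bound by Ino2 and Ino4. Each is the window of 300 bases that ends 150 bases before the start codon, from the R64 genome, 5′ to 3′ on the coding strand of its gene, with each match on either strand in capitals. INO1 lies on the minus strand (window chrX:136084-136383), as does OPI3 (chrX:573086-573385). The INO1 window held 2 matches and the OPI3 window 1.
INO1 promoter: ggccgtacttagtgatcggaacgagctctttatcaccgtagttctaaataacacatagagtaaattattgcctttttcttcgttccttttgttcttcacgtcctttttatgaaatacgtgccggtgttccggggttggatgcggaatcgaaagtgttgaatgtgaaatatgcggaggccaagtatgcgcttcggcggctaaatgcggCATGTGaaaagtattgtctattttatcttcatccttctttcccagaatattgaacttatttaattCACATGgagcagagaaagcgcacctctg
OPI3 promoter: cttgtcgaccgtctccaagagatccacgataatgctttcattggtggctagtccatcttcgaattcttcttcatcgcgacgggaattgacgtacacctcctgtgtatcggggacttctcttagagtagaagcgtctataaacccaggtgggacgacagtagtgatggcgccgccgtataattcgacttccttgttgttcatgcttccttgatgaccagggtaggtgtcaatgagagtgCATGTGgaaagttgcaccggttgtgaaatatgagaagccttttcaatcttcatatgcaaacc

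OPI3 encodes a methyltransferase of phosphatidylcholine synthesis. It was at 59.6, 59.9 and 61.9 TPM in Myr libraries A, B and C of 4 h and at 584, 689 and 620 TPM in those of 5 h. Every 5 h library was far above every 4 h library, and by limma OPI3 rose by 3.36 on the log2 scale (SE 0.09, adjusted p = 1.4e-22). INO1 encodes inositol 3-phosphate synthase, which makes inositol from glucose 6-phosphate. It was at 17.8, 16.2 and 16.6 TPM at 4 h and at 155, 205 and 158 TPM at 5 h. These groups were also well apart, and INO1 rose by 3.27 on the log2 scale (SE 0.15, adjusted p = 9e-17). ITR1, the main inositol transporter of the plasma membrane, was at 145, 132 and 150 TPM at 4 h and at 568, 636 and 594 TPM at 5 h (log2 fold change 2.07). SAM2, one of the S-adenosylmethionine synthetases, supplies the methyl groups that phosphatidylcholine synthesis uses. It was at 91.2, 81.3 and 94.9 TPM at 4 h and at 482, 500 and 483 TPM at 5 h (log2 fold change 2.44). CHO1, phosphatidylserine synthase, was at 99.2, 95.5 and 111 TPM at 4 h and at 313, 311 and 291 TPM at 5 h, again with no overlap (1.57, SE 0.07). Of the 24 measured genes of inositol and phospholipid synthesis, 17 rose, with a median of 0.72. After median centring 16 rose (median 0.53), and after spike-in scaling 9 rose (median 0.33). In vehicle 9 of the 24 rose over the same hour (median 0.23). URA7, a CTP synthase, fell in this list (-0.45). CATGTG was present in 45.8% of the promoter windows of the list, in 13.8% of those of genes that rose at least 2-fold and in 9.58% of the windows of all tested genes.

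OPI3 and SAM2 also rose in vehicle over the same hour, by 1.84 and 1.96, and ITR1 by 1.15. INO1 did not share this: it had a mean of 9.4 ± 1.86 TPM (SD, n = 3) in vehicle at 4 h, 9.37 ± 1.55 at 5 h and 22.1 ± 3.57 at 6 h. With Myr its mean was 16.9 ± 0.854 TPM at 4 h, 173 ± 27.9 at 5 h and 226 ± 24.7 at 6 h.

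**Figure D2:**
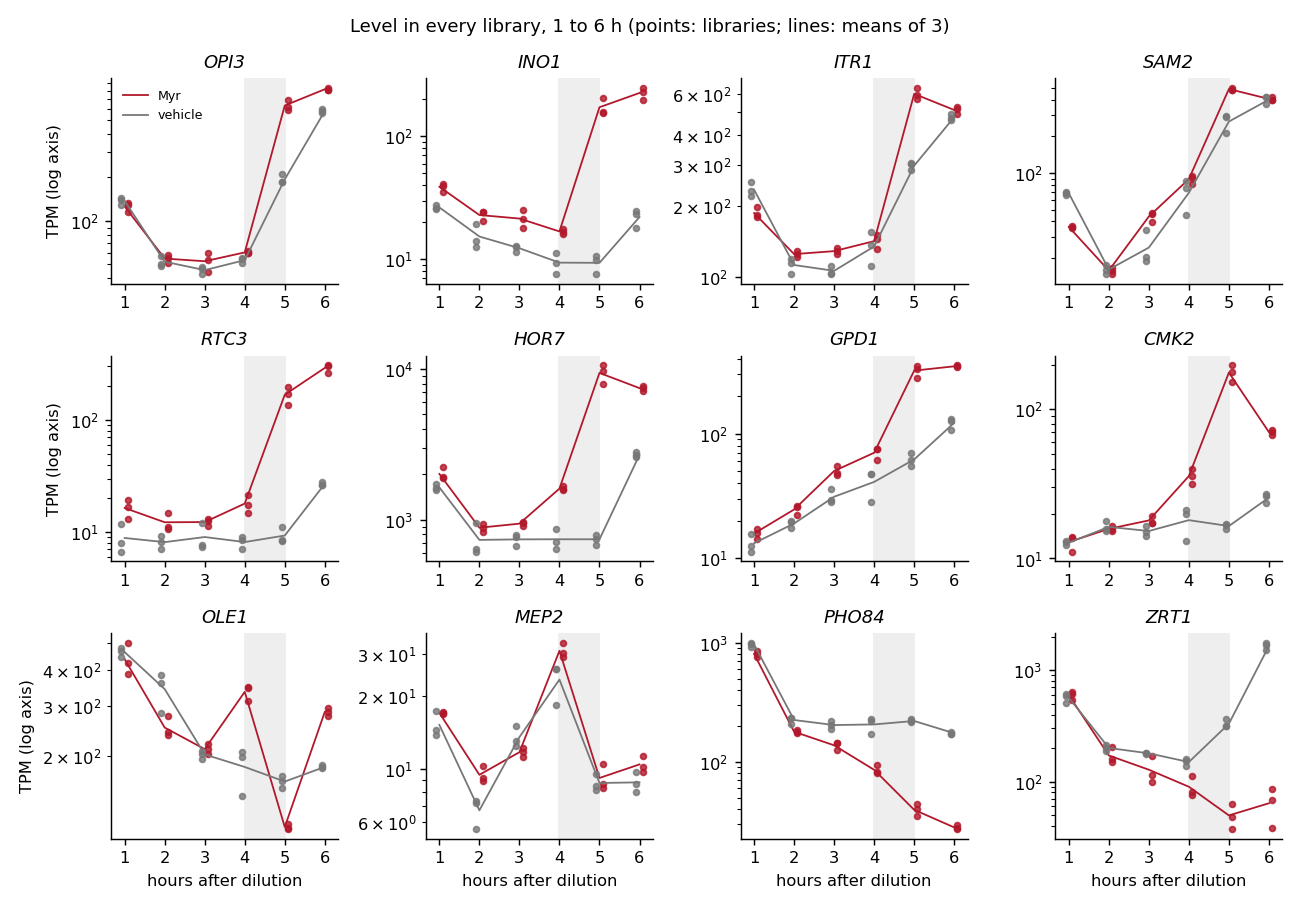
TPM (log axis) of 12 genes in every library from 1 h to 6 h, with lines through the means of 3 libraries, Myr in red and vehicle in grey, and the hour from 4 h to 5 h shaded. INO1, RTC3, HOR7 and CMK2 jump in the shaded hour with Myr only, OPI3, ITR1 and SAM2 climb in both treatments, and OLE1 dips at 5 h with Myr and is back at 286 TPM at 6 h.

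Targets of Msn2 and Msn4 made up the next large group. RTC3 and HOR7 had the largest changes of this list, and their promoters are shown with AGGGG, the stress response element bound by Msn2 and Msn4, in capitals on either strand (CCCCT where it lies on the other strand). The RTC3 window is chrVIII:280370-280669 and the HOR7 window chrXIII:774302-774601, both on the plus strand of R64, and each held 2 matches.
RTC3 promoter: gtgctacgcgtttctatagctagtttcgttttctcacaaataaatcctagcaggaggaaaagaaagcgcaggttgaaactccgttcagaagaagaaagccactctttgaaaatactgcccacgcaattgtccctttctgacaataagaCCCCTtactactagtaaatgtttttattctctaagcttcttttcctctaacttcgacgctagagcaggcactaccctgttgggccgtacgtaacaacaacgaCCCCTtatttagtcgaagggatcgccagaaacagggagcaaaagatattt
HOR7 promoter: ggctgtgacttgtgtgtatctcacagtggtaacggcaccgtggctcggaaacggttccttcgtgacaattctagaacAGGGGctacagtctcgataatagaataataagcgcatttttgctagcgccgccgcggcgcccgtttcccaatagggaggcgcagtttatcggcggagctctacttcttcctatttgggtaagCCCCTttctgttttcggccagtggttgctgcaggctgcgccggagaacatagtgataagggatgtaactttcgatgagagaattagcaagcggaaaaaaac

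RTC3 was at 17.5, 21.6 and 14.7 TPM in the Myr libraries of 4 h and at 135, 198 and 171 TPM in those of 5 h. The groups did not overlap, and the log2 fold change was 3.16 (SE 0.18, adjusted p = 2.5e-14). HOR7, a small protein first found through its response to high osmolarity, was at 1564, 1587 and 1669 TPM at 4 h and at 7996, 10594 and 9695 TPM at 5 h. Its groups were far apart, with a log2 fold change of 2.54 (SE 0.12). GPD1, the glycerol 3-phosphate dehydrogenase that starts glycerol synthesis, was at 75, 60.8 and 74.5 TPM at 4 h and at 282, 351 and 329 TPM at 5 h (2.18, SE 0.15). Of the 39 measured targets, 33 rose, with a median of 0.99. After median centring 31 rose, and after spike-in scaling 21 rose and the median was 0.61. HSP26, a small heat shock protein of the same list, went the other way. It was at 65.5, 61.2 and 64.1 TPM at 4 h and at 48.8, 52.3 and 42.9 TPM at 5 h (-0.40, SE 0.15, adjusted p = 0.036).

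AGGGG was present in 84.6% of the promoter windows of this list and in 47.6% of those of the 225 genes that rose at least 2-fold. It was present in 23.3% of all 5980 windows of tested genes, in 30.7% of those of the 1971 rising genes and in 18.5% of those of the 400 falling genes. AGGGG and the other letters searched can fall on each other's bases, and a match is only a description of these windows. GATGAG, the core of the PAC element of ribosome biogenesis genes, was in 17% of all windows, 13.3% of those that rose at least 2-fold and 21.5% of those that fell. TGACTCA, the Gcn4 site, was in 2.78%, 2.22% and 1.5%, and GGTGGCAAA, the Rpn4 site of proteasome genes, in 0.803%, 2.22% and 0.25%. ACGCGT, the cell cycle box bound by the MBF complex, was in 3.36%, 3.11% and 4.25%. The calcineurin element GNGGCTCA or GNGGCGCA was in 2.36%, 5.78% and 1.75%.

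Storage sugar and glycerol genes rose with this group. Of 20 measured genes of trehalose and glycogen, 19 rose, with a median of 0.82 (0.48 after spike-in scaling). TPS1, trehalose 6-phosphate synthase, went from 49.5, 48.6 and 53.2 TPM to 113, 149 and 141 TPM (1.39, SE 0.11). TPS2, the phosphatase of the same complex, rose by 1.67 TSL1, its regulatory subunit, by 1.76 and PGM2, phosphoglucomutase, by 1.19. Of 13 glycerol genes, 10 rose, with a median of 0.57. GPP2, a glycerol 3-phosphatase, rose by 1.57. Of 30 genes of glycolysis and ethanol, 21 rose (median 0.60), among them the glucokinase GLK1 (1.70) and the enolase ENO1 (1.60). Of 32 genes of the tricarboxylic acid cycle, 24 rose (median 0.44), with the citrate synthase CIT1 at 0.95. MPC3, the mitochondrial pyruvate carrier subunit of respiring cells, rose by 1.29. These lists stayed above 0 in median under median centring and spike-in scaling. After spike-in scaling, though, the rising members were 7 of 20 for trehalose and glycogen, 4 of 13 for glycerol, 6 of 30 for glycolysis and 1 of 32 for the tricarboxylic acid cycle. Over all genes 245 of 5983 rose in that setting.

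Genes of protein folding and redox defence rose in smaller steps. Of 29 heat shock proteins and chaperones, 19 rose, with a median of 0.45. CPR1, a cyclophilin, was at 1826, 1691 and 1853 TPM at 4 h and at 4022, 4357 and 3962 TPM at 5 h, with no overlap (1.20, SE 0.10). SSA1, an Hsp70, rose by 1.08 and HSP42, a small heat shock protein, by 1.05. Of 34 genes of oxidative stress defence, 23 rose (median 0.43), with the glutathione transferase GTT1 at 1.58, the mitochondrial peroxiredoxin PRX1 at 1.07 and the glutaredoxin GRX1 at 1.03. GRX4, a glutaredoxin that takes part in iron regulation, fell by 0.36 on the log2 scale. Of 36 genes of protein kinase A, Rim15, TORC1 and the regulators of Msn2 and Msn4, 22 rose (median 0.40). YAK1, a kinase that opposes growth, rose by 1.13. Of a list of 14 aryl-alcohol dehydrogenases, old yellow enzymes and other reductases, 8 rose. It was led by 2 of the other reductases, the methylglyoxal reductase GRE2 (1.79) and the aldose reductase GRE3 (1.68). Of this list 4 rose after spike-in scaling (median 0.05). After spike-in scaling the rising members were 4 of 29 heat shock genes, 5 of 34 oxidative stress genes and 3 of 36 kinase genes, against 245 of all 5983 genes.

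Markers of stationary phase moved in the same hour. Of SPG1, SPG4, SPG5, HSP26, HSP12, SNO1 and SNZ1, 4 rose and 1, HSP26, fell. Their summed level was 251 to 314 TPM at 4 h and 436 to 512 TPM at 5 h. Of the 7 sporulation markers 3 rose, with summed levels of 44.6 to 49.6 TPM at 4 h and 49.3 to 56.3 TPM at 5 h. That is near the share of all genes that rose, 32.9%. The median log2 fold change was 0.26 for the sporulation markers, 0.47 for those of stationary phase and 0.18 for all genes. These values are on TPM, and no count after spike-in scaling is given for either set of markers. Whether the stress genes follow cell density or the nutrient left in the medium was not tested.

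Calcineurin targets and calcium pumps had the second highest median of the lists described, 0.95, with 15 of 18 measured members rising. Calcineurin is the calcium-activated phosphatase that acts through the transcription factor Crz1. CMK2, a calmodulin-dependent protein kinase, was at 35.8, 31.4 and 39.9 TPM at 4 h and at 153, 198 and 179 TPM at 5 h. Its groups did not overlap (2.27, SE 0.12, adjusted p = 3.6e-15), and its mean was down to 70.4 ± 2.8 TPM at 6 h. RCN2, a regulator of calcineurin, was at 33.8, 31.7 and 40.5 TPM at 4 h and at 129, 162 and 160 TPM at 5 h (2.06, SE 0.12). GSC2, a glucan synthase subunit made under stress, was at 17.1, 15.3 and 18.6 TPM at 4 h and at 65.8, 82.2 and 80.4 TPM at 5 h (2.10, SE 0.13). YPS1, a protease anchored at the cell surface, was at 41.3, 36 and 40.8 TPM at 4 h and at 114, 143 and 140 TPM at 5 h (1.72, SE 0.14). After median centring 14 of the 18 rose, and after spike-in scaling 9 rose and the median was 0.56. None of the 18 windows held either form of the calcineurin element.

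Cell wall genes were mixed. Of 47 measured, 24 rose and 4 fell, with a median of 0.28 that was -0.05 after spike-in scaling. CWP1, a mannoprotein of the wall, went from 37.1, 30.9 and 30.4 TPM to 148, 164 and 148 TPM (2.20, SE 0.12), NCW2 rose by 1.66 and SLT2, the MAP kinase of the cell wall integrity pathway, by 1.02. TIP1, another wall mannoprotein, was at 209, 223 and 236 TPM at 4 h and at 135, 141 and 141 TPM at 5 h (-0.67). Of 17 eisosome and plasma membrane domain genes, 12 rose (median 0.49), and 3 after spike-in scaling (median 0.11). FMP45, a membrane protein of the SUR7 family, went from 4.88, 4.55 and 4.46 TPM to 18.7, 29.8 and 30.7 TPM (2.25, SE 0.16). PUN1, a plasma membrane protein of stress, went from 86.7, 80.1 and 91.4 TPM to 326, 443 and 406 TPM (2.16, SE 0.09). LSP1, a core eisosome protein, rose by 1.01.

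Sphingolipid genes changed little beside these. Of 40 measured genes of sphingolipid synthesis and its control, 20 rose and 1 fell, with a median of 0.27, which was 0.09 after median centring and -0.11 after spike-in scaling. The subunits of serine palmitoyltransferase, the target of Myr, had log2 fold changes of 0.31 (LCB1), 0.18 (LCB2) and 0.17 (TSC3), of which only that of LCB1 was called on TPM (adjusted p = 0.027). LCB1 was at 118, 108 and 117 TPM at 4 h and at 130, 141 and 154 TPM at 5 h, and its change was -0.08 after spike-in scaling. ORM2, a brake on this enzyme, was at 134, 128 and 113 TPM at 4 h and at 198, 241 and 229 TPM at 5 h. Its groups did not overlap (0.83, SE 0.11, adjusted p = 4.2e-07), whereas ORM1 rose by 0.28 on TPM and was at -0.11 after spike-in scaling. The ceramide synthase genes LAG1, LAC1 and LIP1 were at 0.03, 0.01 and 0.30, and of these LIP1 was called on TPM, with a value of -0.09 after spike-in scaling.

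Genes for the head groups of complex sphingolipids divided in the same list. AUR1 and KEI1, which make inositol phosphorylceramide, were at -0.16 and -0.00, neither called. SUR1, CSG2 and IPT1, which add mannose and the second inositol phosphate, rose by 0.76, 0.52 and 0.60. CSH1, a relative of SUR1, rose by 0.25 on TPM and was at -0.12 after spike-in scaling. SUR1 was at 72.3, 66.8 and 79.6 TPM at 4 h and at 108, 133 and 131 TPM at 5 h. The alkaline ceramidases YPC1 and YDC1 rose by 1.00 and 0.98 and HFD1, a fatty aldehyde dehydrogenase of long-chain base breakdown, by 0.94. YPK1, the kinase that relieves the Orm proteins, was at 41.6, 39.1 and 44 TPM at 4 h and at 85.3, 94.4 and 90.3 TPM at 5 h (1.10, SE 0.12), and its partner gene YPK2 rose by 0.70. The upstream kinases PKH1 and PKH2 rose by 0.68 and 0.49, and SLM1, which recruits Ypk1 to TORC2, by 0.49. RSB1, NVJ2 and YSR3 rose by 0.46, 0.54 and 0.54. TSC13, an enoyl reductase of fatty acid elongation, rose by 0.30 on TPM and was at -0.09 after spike-in scaling, and ELO3, an elongase of very long chain fatty acids, fell by 0.27 on the log2 scale. Not called on TPM were TSC10, SUR2, SCS7, ISC1, LCB3, LCB4, LCB5, DPL1, SVF1, ELO2, IFA38, PHS1 and SLM2, with values from -0.20 to 0.29.

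Fatty acid genes fell in part. OLE1, the fatty acid desaturase, was at 346, 313 and 350 TPM in the Myr libraries of 4 h and at 112, 110 and 116 TPM in those of 5 h. The groups were far apart (-1.57, SE 0.11, adjusted p = 6.6e-13), and the 6 h mean was 286 ± 8.77 TPM, so the low level was seen at 5 h alone among 4 h to 6 h. FAA4, an acyl-CoA synthetase, was at 142, 125 and 144 TPM at 4 h and at 68.6, 69.8 and 77.7 TPM at 5 h (-0.92, SE 0.15). Of 16 measured genes of fatty acid synthesis, desaturation and elongation, 6 fell and 5 rose, with FAT1, a very long chain acyl-CoA synthetase and transporter, at 0.61. IZH4, a membrane protein of zinc and lipid metabolism, was at 21.7, 22.5 and 23.2 TPM at 4 h, at 6.31, 8.83 and 8.21 TPM at 5 h and at a mean of 18.9 ± 1.67 TPM at 6 h. Like OLE1, it was lowest at 5 h among these hours.

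Transporters made up much of the rest of the largest falls. MEP2, an ammonium transporter, was at 33.2, 28.9 and 30.2 TPM at 4 h and at 8.34, 8.64 and 10.4 TPM at 5 h (-1.65, SE 0.12). GAP1, the general amino acid permease, was at 33.1, 31.8 and 33 TPM at 4 h and at 12.9, 13.2 and 14.2 TPM at 5 h (-1.22, SE 0.13). FIT3, a cell wall protein of siderophore iron uptake, went from 279, 250 and 244 TPM to 97.9, 114 and 118 TPM (-1.22, SE 0.13). These 3 fell in vehicle over the same hour as well, by 1.31, 1.41 and 1.28 on the log2 scale. FTR1, the high-affinity iron permease, went from 198, 164 and 190 TPM to 81.8, 94.7 and 84.2 TPM (-1.07, SE 0.11), and in vehicle it was at 0.05.

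PHO84, the high-affinity phosphate transporter, has CACGTG, the site of Pho4, in its promoter. Its window is shown as that of a phosphate gene that fell, with matches in capitals (minus strand, chrXIII:25951-26250 of R64). It held 2 matches, and CACGTG was in 50% of the windows of the phosphate list, 4.62% of all windows, 8% of those of genes that rose at least 2-fold and 5% of those of genes that fell.
PHO84 promoter: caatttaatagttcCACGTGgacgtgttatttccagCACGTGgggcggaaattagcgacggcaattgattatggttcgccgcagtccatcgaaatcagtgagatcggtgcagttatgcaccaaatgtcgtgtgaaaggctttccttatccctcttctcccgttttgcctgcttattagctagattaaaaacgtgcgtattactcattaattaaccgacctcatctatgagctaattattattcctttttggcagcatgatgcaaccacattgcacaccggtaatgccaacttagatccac

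PHO84 was at 94.9, 80.5 and 81.3 TPM at 4 h and at 43.8, 34.9 and 39.7 TPM at 5 h. No 5 h library reached the lowest 4 h library (-1.10, SE 0.09, adjusted p = 9e-11). SPL2, which holds back low-affinity phosphate uptake, went from 7.16, 4.28 and 6.59 TPM to 2.49, 1.27 and 2.97 TPM (-1.13, SE 0.18). Of 30 measured phosphate genes 7 fell and 7 rose, and the risers were led by GPP2, PHM7 (1.54) and PHO89, a sodium-phosphate cotransporter (1.11). PHM7 and PHO89 were low, with means of 0.818 and 4.16 TPM at 4 h and 4.31 and 10.2 TPM at 5 h. GPP2 also belongs with the glycerol genes. ZRT1, the high-affinity zinc transporter, was at 81, 113 and 75.4 TPM at 4 h and at 48.6, 37.2 and 63.4 TPM at 5 h (-0.85, SE 0.20). Of 16 genes of the Zap1 zinc regulon, 4 fell and 5 rose. ADH1, the main alcohol dehydrogenase, rose by 0.61 and IZH1 fell by 0.91 on the log2 scale.

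The other called falls among the 12 largest were those of INA1, CHA1, YHB1 and the 5S ribosomal RNA copies. CHA1, a serine and threonine deaminase, was at 370, 314 and 331 TPM at 4 h and at 175, 134 and 148 TPM at 5 h (-1.15, SE 0.14). INA1 went from 268, 245 and 272 TPM to 97.3, 85.6 and 101 TPM (-1.46, SE 0.13). YHB1, a flavohemoglobin that removes nitric oxide, went from 374, 297 and 359 TPM to 173, 172 and 161 TPM (-1.01, SE 0.15). RDN5-1 and RDN5-6, near-identical copies that share reads, had nearly equal values. To the digits printed, both were at 146, 102 and 137 TPM at 4 h and were listed at 0, 23.3 and 39.5 TPM at 5 h (-3.68, SE 1.24, adjusted p = 0.019). 5S RNA has no poly(A) tail and the libraries were selected for poly(A), so these levels say little of the RNA itself.

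Genes that carry proteins to the vacuole rose as broad groups with small changes. Of 38 measured genes of the endocytic coat and actin patch, 37 rose, with a median of 0.75, against 32.9% of all genes. The actin patch protein ABP1 was at 39.7, 35.5 and 40.1 TPM at 4 h and at 74.4, 82.9 and 91.2 TPM at 5 h, with no overlap (1.09, SE 0.13). VRP1, the yeast verprolin, rose by 1.14 CAP1, a subunit of capping protein, by 1.06 and SAC6, fimbrin, by 1.05. Of 32 genes of ESCRT, retromer and vacuolar sorting, 26 rose (median 0.51), led by VPS36 of ESCRT-II (1.50) and PEP12, the endosomal syntaxin (1.32). YPT53, a Rab5-type GTPase of endosomes, was low at 4 h (3.28, 2.45 and 2.92 TPM) and was at 16.6, 25.7 and 21.7 TPM at 5 h (2.51, SE 0.17). After median centring 36 of 38 and 23 of 32 genes rose. After spike-in scaling 6 and 3 rose, with medians of 0.36 and 0.12.

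All 12 measured vacuolar proteases and their inhibitors rose, with a median of 0.93 (0.54 after spike-in scaling, 6 of 12 called). PEP4, the protease that activates the others, was at 114, 101 and 112 TPM at 4 h and at 298, 342 and 319 TPM at 5 h (1.54, SE 0.09). PRB1, proteinase B, went from 32.5, 29.3 and 36.4 TPM to 99.1, 131 and 132 TPM (1.85, SE 0.15), and APE1, an aminopeptidase, rose by 1.61. Of 34 autophagy genes, 29 rose (median 0.55), with ATG8, the ubiquitin-like protein of the autophagosome, at 31.9, 30.9 and 33.7 TPM at 4 h and at 72, 86.7 and 80.5 TPM at 5 h (1.28). After spike-in scaling 8 of the 34 rose.

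UBI4, the polyubiquitin gene, was at 55.6, 50.8 and 60.2 TPM at 4 h and at 127, 143 and 133 TPM at 5 h. Every 5 h library was more than 2-fold above every 4 h library, and the log2 fold change was 1.26 (SE 0.08, adjusted p = 7.4e-14). RPS31, which encodes ubiquitin fused to a ribosomal protein, was at 6556, 6706 and 6187 TPM at 4 h and at 5334, 5026 and 5087 TPM at 5 h (-0.33). Of 36 genes of ubiquitin and its enzymes, 20 rose and 1, RPS31, fell, with a median of 0.35 that was -0.04 after spike-in scaling. UBC8, a ubiquitin-conjugating enzyme, rose by 1.31 the protease UBP15 by 1.04 and ECM21, an arrestin-type adaptor of the ubiquitin ligase Rsp5, by 1.00. Of 37 proteasome genes, 36 rose within a narrow range of log2 fold changes, 0.21 to 0.68, with a median of 0.51. PRE2, a catalytic subunit, was at 148, 143 and 147 TPM at 4 h and at 232, 236 and 224 TPM at 5 h (0.66). After spike-in scaling the proteasome median was 0.11 and limma called 0 members (0 at an unadjusted p under 0.05). MUP1, the methionine permease, was at 199, 210 and 207 TPM at 4 h and at 213, 235 and 251 TPM at 5 h (0.18, adjusted p = 0.14).

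Amino acid genes showed no common direction. GCN4, the activator of amino acid synthesis genes, was at 946, 847 and 942 TPM at 4 h and at 860, 864 and 926 TPM at 5 h (-0.05, adjusted p = 0.79). Of 67 genes of Gcn4 and amino acid synthesis, 16 rose and 3 fell (median 0.11 on TPM, -0.08 after median centring), which is below the share of all genes that rose. ARG4 of arginine synthesis rose by 1.18 and CPA1, of the same pathway, fell by 0.64 on the log2 scale. Of 37 genes of methionine, S-adenosylmethionine and sulfate, 17 rose, with a median of 0.27 on TPM and -0.12 after spike-in scaling, and with SAM2, the sulfate pathway kinase MET14 (1.49) and the methionine synthase MET6 (1.23) in front. Of 37 amino acid permeases 13 rose and 8 fell, and of 34 nitrogen-regulated genes 9 rose and 7 fell. The falls made up 21.6% and 20.6%, above the 6.69% of all genes. The rises made up 35.1% and 26.5%, against 32.9% of all genes. After spike-in scaling 0 permeases rose and 8 fell, and 4 nitrogen-regulated genes rose and 8 fell. GAD1, glutamate decarboxylase, rose by 1.44 and CAR2, of arginine breakdown, by 1.22. Of 29 iron uptake genes, 7 rose and 4 fell, and TIS11, which degrades messages of iron-using proteins, rose by 1.30. Of 21 genes from tryptophan to NAD, 10 rose, with a median of 0.29 on TPM and -0.09 after spike-in scaling, and PNC1, a nicotinamidase, went from 103, 87.8 and 103 TPM to 324, 421 and 408 TPM (1.95, SE 0.12). Of 24 hexose transporters and sensors 7 rose, with HXT5, a transporter of slow growth, at 1.44 and SUC2, invertase, at 0.97. HXT1, the low-affinity glucose transporter, fell by 0.34 on the log2 scale.

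Genes of ribosome synthesis fell together by small amounts. Of 98 measured ribosome biogenesis genes, 60 fell (against 6.69% of all genes), with a median of -0.35 and a range of -0.84 to -0.04. DBP2, an RNA helicase, was at 202, 181 and 192 TPM at 4 h and at 125, 91.6 and 105 TPM at 5 h (-0.84, SE 0.14). Of 82 genes of the large ribosomal subunit 34 fell and of 56 of the small subunit 31 fell, with medians of -0.22 and -0.23. Ribosomal protein genes come mostly in near-identical pairs, between which reads are split with less certainty. RPL1A was at 1929, 1959 and 1900 TPM at 4 h and at 1555, 1400 and 1487 TPM at 5 h (-0.38, SE 0.06). Of 32 genes of RNA polymerases I and III, 15 fell and 1, MAF1, rose by 0.37. MAF1 is the repressor of polymerase III, and its value was -0.01 after spike-in scaling. Translation factors were near 0 on TPM (median -0.07, 2 of 41 called lower) and 32 of 41 were lower after median centring. The falls of ribosomal genes were larger in number under the other scalings: after median centring all 98 ribosome biogenesis genes, 73 of 82 and 52 of 56 fell. They also rested on single libraries on TPM. Without Myr library B of 5 h, 34 ribosome biogenesis genes, 16 large-subunit genes and 17 small-subunit genes fell, without Myr library B of 4 h the subunits had 16 and 17, and without Myr library C of 5 h 17 and 15. Large-subunit falls were 21 and 19 without Myr library A and C of 4 h.

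RNA polymerase genes had 6 falls without Myr library A or C of 4 h and 7 without Myr library B of 5 h.

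Of 27 purine genes, 6 fell and 2 rose on TPM, and 20 fell and 2 rose after median centring, when 1313 of all 5983 genes fell. The risers on TPM were ADE16 (0.56), of purine synthesis, and PHO2 (0.44), a transcription factor. HPT1, which salvages guanine and hypoxanthine, went from 307, 285 and 290 TPM to 163, 140 and 135 TPM (-1.01, SE 0.09). AAH1, adenine deaminase, and FCY2, a purine permease, fell by 0.72 and 0.67 on the log2 scale. Of 10 histone genes 4 fell, with the H3 gene HHT1 at -0.53 and the H4 gene HHF1 at -0.43. Of 44 DNA replication genes 5 fell on TPM (median -0.08) and 32 after median centring, and RNR1, ribonucleotide reductase, was the largest (-0.51). Without Myr library A or C of 4 h or Myr library B of 5 h, none of the 44 replication genes was called by limma on TPM, against 8 at an unadjusted p under 0.05 with all libraries. Without Myr library A or C of 5 h 1 and 2 were called, and without vehicle library B of 4 h 11. ACGCGT was in 36.4% of the windows of that list.

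**Figure D3:**
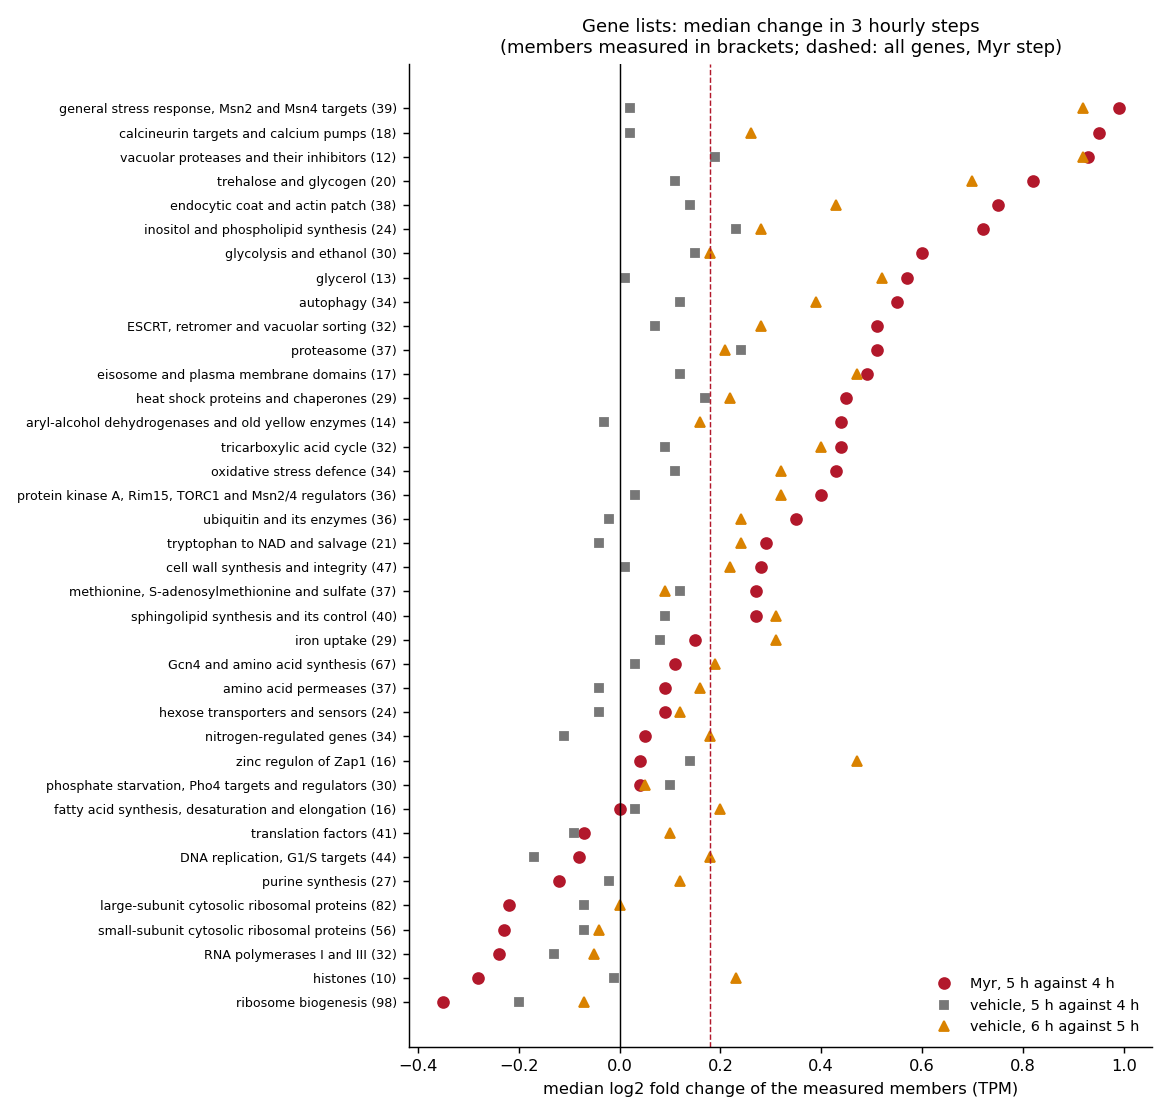
Median log2 fold change (TPM) of the measured members of 38 gene lists for the Myr step from 4 h to 5 h (red circles), the vehicle step of the same hour (grey squares) and the vehicle step from 5 h to 6 h (orange triangles), sorted by the first, with the median of all genes in the Myr step dashed. The Msn2 and Msn4 targets stand at 0.99, 0.02 and 0.92, and calcineurin targets at 0.95, 0.02 and 0.26.

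Vehicle cells of the same hour asked whether the change goes with time alone. From 4 h to 5 h in vehicle 103 genes rose (1.72%) and 50 fell (0.836%), and the median log2 fold change of all genes was -0.00. The step with Myr exceeded the step in vehicle for 702 genes (11.7%) and was below it for 59 (0.986%), by a test of the difference. These counts were 98 and 16 after spike-in scaling and 273 and 27 in a fit of the 12 libraries of 4 h and 5 h alone. INO1 (difference 3.27), CPP3 (3.06), RTC3 (2.99), NQM1 (2.68), YPT53 (2.60), HOR7 (2.54) and TYC1 (2.53) were among the genes with the largest positive differences. NQM1, a transaldolase, was at 5.16, 5.33 and 5.25 TPM with Myr at 4 h and at 32.5, 36.9 and 28.8 TPM at 5 h, and in vehicle its means were 4.15 ± 0.22 and 3.32 ± 0.339 TPM. CPP3 went from 18.8, 20.5 and 18.2 TPM to 93.4, 125 and 72.2 TPM. TYC1 was at 8.32, 1.93 and 4.81 TPM at 4 h and at 14.6, 18.1 and 10.6 TPM at 5 h. Its groups did not overlap, but the 4 h libraries were far apart from each other (step with Myr 1.48, SE 0.50, adjusted p = 0.02).

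The most negative differences were those of ZRT1 (-1.99), OLE1 (-1.42), INA1 (-1.37), SNR191 (-1.33), PLB2 (-1.27) and SPL2 (-1.27). ZRT1 fell with Myr while its vehicle mean went from 150 ± 11.1 to 331 ± 27.1 TPM. PLB2, a phospholipase B, was at 26.4, 27.1 and 27.3 TPM with Myr at 4 h and at 13.2, 15.9 and 17.1 TPM at 5 h, and it rose in vehicle by 0.50. SNR191 is a small nucleolar RNA without a stable poly(A) tail, and its step with Myr alone was not called (-0.59, adjusted p = 0.051).

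By group, the step with Myr was above that of vehicle for 30 of 39 Msn2 and Msn4 targets, 27 of 38 endocytic genes, 14 of 18 calcineurin targets, 13 of 20 trehalose and glycogen genes and 10 of 24 inositol and phospholipid genes. These list counts are on TPM with all libraries, where 702 genes were above, and not in the settings that gave 98 or 273. For the proteasome it was above for 1 of 37, and 4 of the 37 rose in vehicle itself (median 0.24). For ribosome biogenesis it was below for 2 of 98, and the vehicle median was -0.20. The difference rested in part on vehicle library B of 4 h, in which RPL41A, the gene of the smallest ribosomal protein, took 107109 TPM against 31548 and 42892 TPM in the other 2. Without that library 2555 genes were above and 116 below, and the counts were 36 of 38 endocytic genes, 29 of 37 proteasome genes and 18 of 24 inositol and phospholipid genes. Without vehicle library C or D of 4 h 465 and 458 genes were above. After median centring, 741 were above and 579 below. Of the ribosome biogenesis genes 71 of 98 were below in that setting, so the count of this list depended on the scaling. In vehicle alone, 860 genes fell without library B of 4 h, 23 and 21 without C and D of 4 h, and 29 and 27 without A and B of 5 h, and 49 and 51 rose without B and C of 5 h.

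The vehicle cells made a rise of many genes 1 h later, and this comparison was added after the values were seen. From 5 h to 6 h in vehicle 1451 genes rose (24.3%) and 84 fell (1.4%), with a median of 0.20 over all genes. At least 2-fold rises were made by 77 genes, against 225 in the Myr step. After median centring 744 rose and 715 fell, against 1470 and 1313 in the Myr step, and after spike-in scaling 268 rose and 16 fell. Without vehicle library A of 5 h, 725 rose and 51 fell, and without vehicle library C of 6 h, 887 rose and 48 fell. These libraries are not among those of the Myr step. Of the 1971 genes that rose with Myr from 4 h to 5 h, 1035 also rose in vehicle from 5 h to 6 h, which is 52.5% of the first set and 71.3% of the second. Of the 225 genes that rose at least 2-fold with Myr, 177 were called higher in the later vehicle step, against 24.3% of all genes. Their median there was 0.63, against 1.27 with Myr and 0.20 over all genes. The 225 were chosen by the size of their rise with Myr, which lifts the median of 1.27. It is therefore not on equal terms with 0.63. A value above 0 was held by 217 of the 225, in a step whose median gene was itself above 0. Over the vehicle step from 4 h to 5 h, 177 of the 225 had a value above 0, 42 were called higher and the median was 0.23. Over all genes 1.72% were called higher in that step and the median was -0.00. Across 5983 genes, the Myr step and the later vehicle step had a Pearson's r of 0.46 and a Spearman's rho of 0.56, and genes are not independent replicates. Against the vehicle step from 4 h to 5 h these were 0.45 and 0.51.

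**Figure D4:**
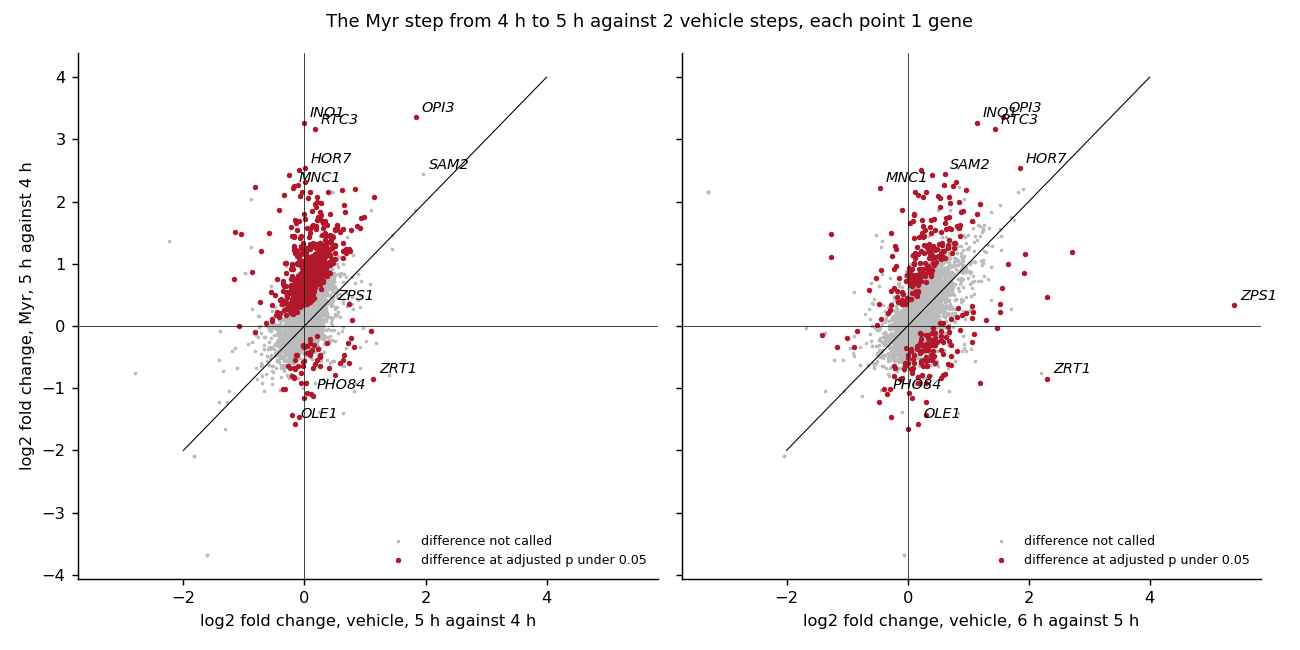
Log2 fold change of each of 5983 genes from 4 h to 5 h with Myr (vertical axis) against vehicle from 4 h to 5 h (left) and from 5 h to 6 h (right), with genes whose difference was called in red and equal change along the diagonal. In the left panel 702 genes lie called above the diagonal and 59 below, and in the right panel 201 and 131, with ZPS1 and ZRT1 far to the right.

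Tested against the later vehicle step, the Myr step was larger for 201 genes (3.36%) and smaller for 131 (2.19%). After median centring these counts were 589 and 467, and without vehicle library B of 4 h, which is in neither step but in the shared fit, 312 and 229. The Msn2 and Msn4 targets had medians of 0.99 with Myr and 0.92 in the later vehicle step, and 5 of 39 were called larger and 3 smaller. The vacuolar proteases had medians of 0.93 and 0.92, with 2 of 12 larger. Trehalose and glycogen genes had 0.82 and 0.70, and 3 of 20 were smaller with Myr, named here after their values were seen: the glycogen phosphorylase GPH1 (-1.07) and the glycogen synthases GSY1 (-0.78) and GSY2 (-0.67). Single genes of the stress list still differed: RTC3 had a difference of 1.71 (adjusted p = 2.8e-05) and GPD1 of 1.21 (adjusted p = 0.00015). The 6 h vehicle mean of RTC3 was 26.9 ± 0.901 TPM, against 168 ± 31.6 TPM with Myr at 5 h.

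Calcineurin targets and inositol and phospholipid genes were larger with Myr more often than the background of 3.36%. They were not the only such lists: 5 of 37 proteasome genes were larger (0 smaller) and 7 of 47 cell wall genes (3 smaller). For calcineurin 9 of 18 were larger (medians 0.95 and 0.26), with CMK2 at a difference of 1.67 and RCN2 at 1.53. For inositol and phospholipid genes 12 of 24 were larger (0.72 and 0.28), with INO1 at 2.12, OPI3 at 1.79 and ITR1 at 1.39. Both counts were similar without vehicle library A of 5 h, 10 of 18 and 12 of 24. After median centring they were 12 of 18 and 13 of 24, when 589 of all genes were larger, against 201 on TPM. In that setting 25 of 38 endocytic genes and 24 of 37 proteasome genes were larger too, against 2 and 5 on TPM. After spike-in scaling 30 of all genes were larger, and no list count is given for that setting. MNC1 (2.68) had one of the largest differences, with TYC1 (2.74), PHO89 (2.37) and YPT53 (2.29). MNC1 was at 119, 106 and 116 TPM with Myr at 4 h and at 415, 614 and 590 TPM at 5 h, while its vehicle means were 54.3 TPM at 5 h and 40.4 TPM at 6 h. PUN1 (2.03), NQM1 (2.02), YPR145C-A (1.95) and GSC2 (1.91) had differences close to that of INO1.

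Zinc genes were smaller with Myr. Of 16 Zap1 genes, 11 were below the later vehicle step, in which 14 of 16 rose (median 0.47, against 0.04 with Myr). ZPS1 of this list had the largest difference of the genes tested, -5.07 (adjusted p = 7.8e-19). With Myr it was at 15.9, 14.1 and 17.6 TPM at 4 h and at 20.5, 20.4 and 19.6 TPM at 5 h, and in vehicle its mean was 20.7 ± 5.33 TPM at 5 h and 912 ± 196 TPM at 6 h. At 6 h with Myr it was at 22.2 ± 1.21 TPM. ZRT1 had a difference of -3.16, with a vehicle mean of 1647 ± 129 TPM at 6 h against 63.9 ± 23.4 TPM with Myr. HXT7, a high-affinity hexose transporter, had -1.84, YLR342W-A -2.12, OLE1 -1.74 and IZH4 -1.73. HXT7 and its near-identical neighbour HXT6 share reads. Of 10 histone genes 4 were below. Without vehicle library A of 5 h these counts were 11 of 16 and 3 of 10.

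Coding length had a weak relation to the step across genes, but short genes were unevenly spread. Of genes with a known length, those under 400 nt made up 5.64% of rises, 17.8% of falls and 10.6% of all tested. Among rises of at least 2-fold they made up 12.5%. Genes with a coding length under 400 nt held 42.2% ± 1.1 of TPM at 4 h and 39.5% ± 0.523 at 5 h with Myr (SD, n = 3, exact permutation p = 0.1, the smallest possible). The median coding length was 1069 nt for genes that rose at least 2-fold, 876 nt for genes that fell and 1203 nt for all tested genes with a length. Across 5864 genes the log2 fold change and log2 coding length had a Pearson's r of 0.08. With a loess trend on coding length taken out, 1307 genes rose and 1607 fell.

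Among the genes that rose most and have not been described, PAL2 went from 15.9, 13.9 and 16.7 TPM to 62.3, 95.9 and 88.2 TPM (2.31, SE 0.15) and was not called in vehicle over that hour (0.01). It completes the 12 largest rises with OPI3, INO1, RTC3, HOR7, YPT53, SAM2, NQM1, CMK2, FMP45, CPP3 and MNC1. Of these 12, all but SAM2 differed from vehicle over the same hour and all but CPP3 from vehicle 1 h later. Over all genes 11.7% were above vehicle in the first of these tests and 3.36% in the second. The 12 were chosen by the Myr step that enters both tests, so their count is not independent of that choice.

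Genes that check the plasmid, with MET17 taken as the MET gene because BY4741 lacks it, changed unequally. URA3 was at 66.2, 63.7 and 71.4 TPM at 4 h and at 112, 134 and 125 TPM at 5 h (0.87), and LEU2 was at 150, 150 and 177 TPM and at 223, 312 and 318 TPM (0.82). MET17 rose by 0.33 on TPM and was at -0.06 after spike-in scaling, and HIS3 was at 0.19 (adjusted p = 0.17). Whether the plasmid changed in number was not tested.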

How the data were processed

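RNA was measured by RNA-seq in 42 samples, 3 in each of 14 groups, of which 6 carry the comparison and 36, those of 1 to 6 h, enter the fit. Per the study's methods and the submitters' processing notes, the authors made TruSeq Stranded mRNA libraries with spike-in RNAs, one mix for vehicle and another for Myr, and used bcl2fastq 2.17.1.14, Trimmomatic 0.36 and Salmon 0.8.2 on the R64 transcriptome with 92 spike-ins. The deposited values are TPM, which add to 1000000 in each library over 6198 rows, so no counts or depths are known and no count test was used. No column was left unused (0). Of 6106 yeast genes, 6103 were matched by identifier to the RefSeq annotation of R64, from which names, coding lengths and promoter windows were read.

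log2(TPM + 1) was fitted with limma 3.58.1 in R 4.3.3, with 12 group means and a variance trend, for 5983 genes. Median centring, spike-in scaling (on spike-ins whose mean reached 10 TPM), removal of a coding length trend (loess, span 0.5), pseudocounts of 0.1 and 10, filters of 0 and 10 TPM, no variance trend, smaller sets of libraries, a block on the column letter and leaving out each library of 4 h and 5 h, and of vehicle at 6 h for the later step, were the alternatives. The vehicle step from 5 h to 6 h, the inositol and calcineurin elements and the promoter window were added after the data were seen. limma was tested on simulated data. Figures and tables were made in Python 3.11.15 (matplotlib 3.10.9, pandas 2.3.3, scipy 1.17.1, numpy 2.4.6).

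The step, the 53 gene lists and the tests were chosen with earlier results of these data known. Lists are described by counts and medians beside those of all genes, with no test of a list. Of these lists 38 are described, and the others are not reported here. Of the listed genes, 5 names were not matched in the table and were left out. The genes named are the 12 largest changes in each direction among called genes whose mean reached 10 TPM, with no overlap between the hours, the 6 largest differences from vehicle in each direction, for each list the 4 called members (or fewer) that moved most in its main direction and 1 in the other, the sphingolipid list, UBI4, MUP1 and GCN4, and the genes that check the labels. The text draws on these. The 6 largest differences from the later vehicle step were named in the same way, after the values were seen.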

Additional observations from a re-analysis of the deposited data

Results flagged for a closer look

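The genes looked at here were the 12 largest changes with Myr and the 6 largest differences from vehicle, in each direction. For 23 of them the step from 4 h to 5 h differed between Myr and vehicle by limma's test of the difference (adjusted p under 0.05). The 6 largest differences were chosen by this same test, and the 12 largest changes by the Myr step that enters it. Over all genes 702 were above vehicle and 59 below, so the 23 are not the full set. Values are the log2 step with Myr minus that in vehicle. The genes above vehicle were INO1 (3.27), CPP3 (3.06), RTC3 (2.99), NQM1 (2.68), YPT53 (2.60), HOR7 (2.54), TYC1 (2.53), FMP45 (2.42), MNC1 (2.41), CMK2 (2.37), PAL2 (2.30) and OPI3 (1.52). Those below vehicle were ZRT1 (-1.99), OLE1 (-1.42), INA1 (-1.37), SNR191 (-1.33), PLB2 (-1.27), SPL2 (-1.27), IZH4 (-1.22), PHO84 (-1.21), CHA1 (-1.14), FTR1 (-1.12) and YHB1 (-0.69). TYC1 and SNR191 were low or uneven among libraries.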

How the results depend on the processing

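For the genes named, 4980 values over all settings kept direction and call, 201 lost the call, 49 gained it and 14 changed direction. After spike-in scaling the step with Myr was -0.04 for ZPS1, -0.03 for ZRT3, -0.01 for MAF1, -0.08 for LCB1, -0.11 for ORM1, -0.09 for LIP1, -0.12 for CSH1, -0.09 for TSC13 and -0.06 for MET17. With the coding length trend removed it was -0.23 for TSC10, -0.23 for LAC1, -0.19 for SCS7 and -0.19 for STE2, and STE2 was at -0.15 after median centring. The cause of these and the following moves was not tested.

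Counts of the Myr step, 1971 higher and 400 lower, were 1294 and 188 with the 12 libraries of 4 h and 5 h, 1307 and 1607 with the length trend removed, and 245 and 732 after spike-in scaling. The lower count was 699 with the 6 Myr libraries and 1313 after median centring. At least 2-fold, 135 genes were higher and 31 lower with the length trend removed, 144 and 27 after median centring, 106 and 8 with a pseudocount of 10, and 85 and 71 after spike-in scaling. Vehicle from 4 h to 5 h had 23 and 10 with 12 libraries, 456 and 489 with the length trend removed, and 435 and 426 after median centring, with 5 higher after spike-in scaling. The difference from vehicle had 273 and 27 with 12 libraries and 98 and 16 after spike-in scaling, with 805 lower when the length trend was removed and 579 after median centring. Vehicle from 5 h to 6 h had 743 and 859 with the length trend removed, 744 and 715 after median centring, and 268 and 16 after spike-in scaling. The difference from that step had 568 and 654, 589 and 467, and 30 higher after spike-in scaling.

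Leaving out each library in turn gave 1429 to 2313 higher and 244 to 551 lower in the Myr step, and 204 to 271 and 13 to 19 at least 2-fold. It gave 49 to 149 and 21 to 860 in vehicle, 458 to 2555 and 42 to 116 for the difference, 725 to 2130 and 48 to 119 for vehicle from 5 h to 6 h, and 139 to 312 and 99 to 229 for the difference from that step. The depth of the libraries is unknown, so no limit of detection is given.

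No label says that a column letter marks a flask. Deviations of same-letter Myr libraries of 4 h and 5 h correlated at 0.015, 0.006 and 0.095, which does not show whether they share one, and vehicle, whose letters differ between these hours, was not checked. A block on the letter gave 2205 higher and 542 lower in the Myr step, 269 higher in vehicle, 143 lower for the difference and 210 lower for the difference from the later vehicle step.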
